A study of Homo sapiens with 6 samples.

Results

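ATP-binding cassette (ABC) transporters were described in A549 cells, a human lung adenocarcinoma cell line, that overexpressed the cytokine gene IL17D or carried an empty vector. Members were the protein-coding genes in the deposited count table whose symbol is ABC, a subfamily letter from A to G and a number, and 45 of the 58735 listed genes met this rule. They comprised 12 genes of subfamily A, 9 of B, 11 of C, 4 of D, 1 of E, 3 of F and 5 of G. RNA-seq counts came from 3 libraries of IL17D-overexpressing cells and 3 libraries of control cells, both grown in RPMI1640 medium with fetal bovine serum. The vector was a lentiviral pCCL construct, in which the human PGK promoter drove the IL17D coding sequence, amplified from the small cell lung cancer line H82, together with GFP. The comparison asks how IL17D overexpression changes expression in lung cancer cells. The sources used here do not give whether each population was 1 clone or a pool, nor whether the libraries of a group came from separate cultures. The p-values therefore measure only the spread between these libraries, which may be technical.

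ABC proteins bind and hydrolyse ATP through paired nucleotide-binding domains, and most couple this to the movement of a substrate across a membrane. Subfamily A mainly moves lipids, B holds P-glycoprotein and mitochondrial and lysosomal carriers, and C holds the multidrug resistance-associated proteins (MRPs), which export organic anions and drug conjugates. Subfamily D serves peroxisomes and lysosomes, G moves sterols and drugs, and E and F lack membrane-spanning domains and act on ribosomes. In lung, ABCA3 loads surfactant lipids into the lamellar bodies of alveolar type II cells, and ABCC1 and ABCG2 are known efflux pumps of airway epithelium and of tumours. A549 cells are known for an inactive KEAP1 and high activity of the transcription factor NRF2, of which ABCC1, ABCC2 and ABCC3 are known targets.

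The feature that all these proteins are built around is the Walker A loop, which holds the phosphates of ATP: glycine, any 4 residues, glycine, lysine, then serine or threonine. Codons for that loop were searched in the longest complete coding sequence of each gene in GENCODE 29 (GRCh38). At least 1 match was found in 44 of 45 members, the exception being ABCG8, against 4.74% of all 19484 protein-coding genes with a complete coding sequence. There were 2 matches, as in a protein with both domains, in all 12 A genes, all 11 C genes, ABCE1, all 3 F genes and 4 of the 9 B genes. The 4 D genes, 4 of the 5 G genes and the other 5 B genes carried a single match. Coding sequences held 1543 to 5058 codons in A and 1325 to 1603 in C, against 606 to 745 in D and 646 to 824 in G. Length did not follow the number of matches throughout, since ABCE1 with 599 codons and the F genes with 623 to 845 had 2 matches. The loops of the 3 members that passed the adjusted test below, and of ABCC2, the most abundant member, are printed from 5′ to 3′ on the coding strand. Capitals mark the 24 bases of the loop, and 6 bases are kept on each side.
ABCC3, first loop, exon 16, chr17:50669177-50669212 (+): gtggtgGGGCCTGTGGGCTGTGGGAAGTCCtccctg
ABCC3, second loop, exon 28, chr17:50683955-50683990 (+): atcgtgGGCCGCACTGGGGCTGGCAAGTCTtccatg
ABCC1, first loop, exon 16, chr16:16079389-16079424 (+): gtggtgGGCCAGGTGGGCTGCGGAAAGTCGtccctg
ABCC1, second loop, exon 28, chr16:16134356-16134391 (+): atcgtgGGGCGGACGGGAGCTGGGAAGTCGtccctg
ABCC2, first loop, exon 16, chr10:99813055-99813090 (+): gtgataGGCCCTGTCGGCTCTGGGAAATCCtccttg
ABCC2, second loop, exon 29, chr10:99845630-99845665 (+): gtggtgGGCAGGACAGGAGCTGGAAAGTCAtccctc
ABCG1, its single loop, exon 4, chr21:42271129-42271164 (+): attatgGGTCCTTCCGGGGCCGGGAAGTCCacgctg

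The counts on genes totalled 14319398 to 16521021 per library, of which 40423 to 48397 fell on members. Values are given as CPM (counts divided by the TMM-scaled library total in units of 1e6) and, where levels of different genes are compared, as CPM per kilobase of gene length. A count of 0 in a library allows up to 3 counts, or 0.182 to 0.210 CPM, and this limit covers counting error only. IL17D itself had 24, 18 and 34 counts in the control libraries and 31274, 32155 and 26772 in the IL17D-overexpressing libraries, so the labels and the counts of the targeted gene matched in every library. Of 5 epithelial markers, KRT8 and KRT18 stood at 7201 CPM or more and 3504 CPM or more, whereas EPCAM was near 1 CPM and KRT19 was too low to test. The epithelial cadherin gene CDH1 fell from 43.4 ± 2.65 to 35.7 ± 3.32 CPM (SD, n = 3; edgeR adjusted p = 0.0306), and all 4 tested epithelial markers had lower values. The 10 markers of other cell types summed to 23.3 to 25.8 CPM in control and 20.1 to 24.9 CPM in IL17D-overexpressing libraries, almost all of it COL1A1, and 3 of the 10 were at 0 in every library. The part of these differences in the results below was not tested.

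Expression passed the low-count filter for 30 of the 45 members: 6 A, 6 B, 8 C, 3 D, 1 E, 3 F and 3 G genes. The levels per kilobase ran over more than 2 orders of magnitude, and the C subfamily was the most abundant. ABCC2 led all members with 78.5 CPM per kilobase (mean of 6 libraries), followed by ABCC3 with 55.9 and ABCC1 with 48.8. ABCC3 was above ABCC1 in every library, although the ranges of the 2 genes overlapped when both groups were pooled. ABCG2, the breast cancer resistance protein, came next with 35.2, then the ribosome recycling factor ABCE1 with 26.4, the translation factor ABCF1 with 22.5 and ABCC4 with 18.9. The other leading members of their subfamilies were ABCA2 with 14.3, the mitochondrial carrier ABCB10 with 12.2 and the peroxisomal carrier ABCD3 with 10.5 CPM per kilobase. ABCC1, ABCC2 and ABCC3 together held 47.8 to 48.1% of the members' summed CPM per kilobase in the control libraries and 45.6 to 45.8% in the IL17D-overexpressing libraries. ABCB1 (P-glycoprotein), ABCC6, ABCC8 and ABCG4 were tested at 0.190 to 0.233 CPM per kilobase, and ABCC6 and ABCC8 could not be ordered between themselves.

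**Figure D1:**
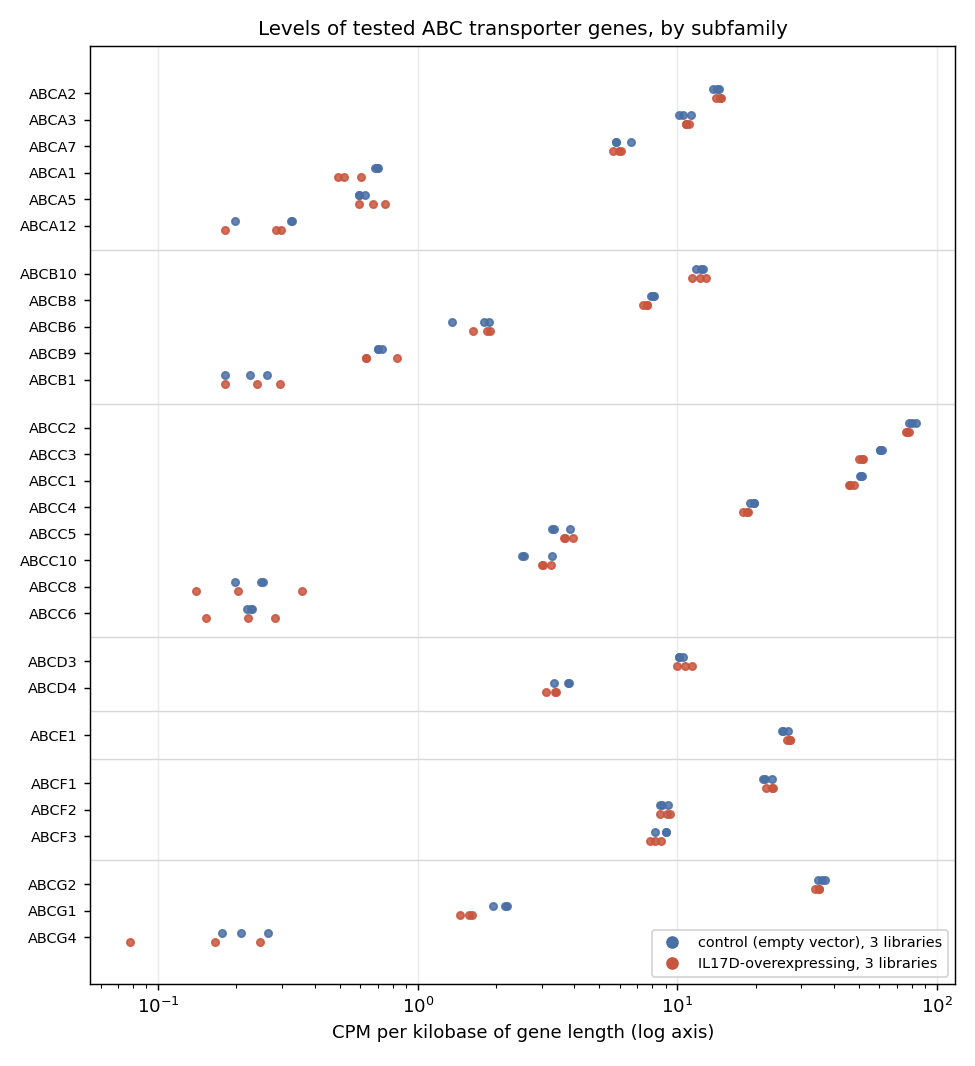
Level of 28 of the 30 tested ABC transporter genes in CPM per kilobase of gene length (log axis), grouped by subfamily and ordered by level, with 1 point per library (blue, 3 control libraries; red, 3 IL17D-overexpressing libraries). ABCC2, ABCC3 and ABCC1 stand at the top with 78.5, 55.9 and 48.8 CPM per kilobase on average, and the IL17D-overexpressing points of ABCC3, ABCC1, ABCG1 and ABCA1 lie to the left of their control points.

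Among the 30 tested members, 3 fell in IL17D-overexpressing cells and 0 rose at an adjusted p under 0.05 (edgeR quasi-likelihood test, adjusted over all 15754 tested genes). The 3 were the MRP genes ABCC3 and ABCC1 and the sterol exporter gene ABCG1. Over all tested genes, 0.908% were called lower and 0.673% higher. At an unadjusted p under 0.05 the same fit gave 6 lower members, the other 3 being ABCA1, ABCC2 and ABCC4, and 0 higher members, against 5.99% and 5.59% of all tested genes. The groups did not overlap for 7 members, all lower in IL17D-overexpressing cells, against 8.31% of all tested genes lower and 7.48% higher. DESeq2 and limma voom each called 2 members, and also none higher. By leaving out 1 library the adjusted count came to 1 without control replicate 1, IL17D replicate 1 or IL17D replicate 3 and to 2 without any other library. The unadjusted count came to 3 without IL17D replicate 1, all lower, to 5 lower and 1 higher without control replicate 2, and to 5 lower and 2 higher without control replicate 3. Without control replicate 3 there were also 12 members whose groups did not overlap, 9 lower and 3 higher. Fewer libraries make this easier to reach, and the shares over all tested genes given above hold for all libraries only.

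In direction alone, 19 tested members had a lower and 11 a higher fitted value, with a median log2 fold change of -0.044 (IL17D minus control), whereas over all tested genes the median was -0.00044 and 50.1% were lower. The split was closer to even, 16 lower and 14 higher, without control replicate 2, IL17D replicate 1 or IL17D replicate 2, and 18 to 20 members were lower without any other library. The subfamily medians were -0.057 in C (6 lower, 2 higher), -0.42 in G (3 lower), -0.063 in D (2 lower, 1 higher), -0.021 in B (4 lower, 2 higher), -0.0043 in A (3 lower, 3 higher), 0.030 in F (1 lower, 2 higher) and 0.065 for ABCE1. Members were not replicates of a condition, so these medians are descriptions without a test. The 95% intervals of the fold changes lay within 0.25 of 0 for 14 members, within 0.5 for 23 and within 1 for 29, on the log2 scale. Only the interval of ABCG4 reached further. Members of 50 CPM or more had standard errors of 0.031 to 0.064 (13 genes, 4 of them at an unadjusted p under 0.05), and members below had 0.065 to 0.39 (17 genes, 2 of them at an unadjusted p under 0.05).

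**Figure D2:**
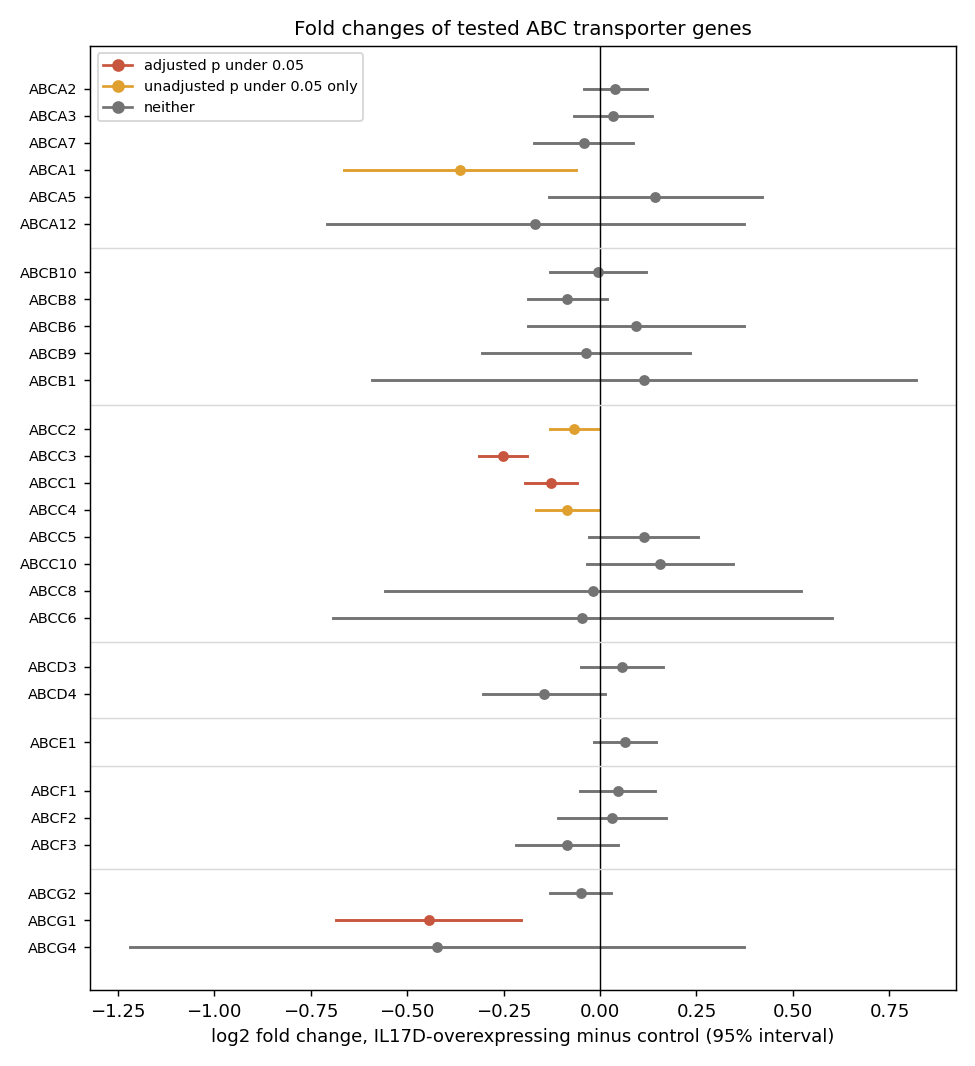
Log2 fold change (IL17D-overexpressing minus control) of 28 of the 30 tested ABC transporter genes, with bars for the 95% interval of edgeR's fit, grouped by subfamily and ordered by level within it. ABCC3, ABCC1 and ABCG1 (red) passed the adjusted test at -0.25, -0.13 and -0.44, ABCA1, ABCC2 and ABCC4 (orange) passed the unadjusted threshold, and the interval of ABCG4 is the widest.

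In subfamily C, the 4 most abundant genes were all lower in every IL17D-overexpressing library than in any control library, and 2 of them fell at the adjusted threshold. ABCC3 (ENSG00000108846, chr17:50634777-50692252) encodes MRP3, which exports glucuronide conjugates and bile acids across the basolateral membrane. It stood at 590.1, 582 and 580.1 CPM in the control libraries and at 492, 483 and 497 CPM in the IL17D-overexpressing libraries. The groups were far apart, with means of 584 ± 5.44 and 491 ± 7.25 CPM (SD, n = 3). The log2 fold change was -0.25 (SE 0.031, 95% interval -0.31 to -0.19, edgeR adjusted p = 1.21e-06), a change of -16.0%. The call held under all 12 alternatives, with a highest adjusted p of 7.32e-05.

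ABCC1 (ENSG00000103222, chr16:15949577-16143074) encodes MRP1, which exports glutathione conjugates and the leukotriene LTC4. It had 389, 386 and 383 CPM in control and 349, 363 and 349 CPM in IL17D-overexpressing libraries. All IL17D-overexpressing values were below all control values, with means of 386 ± 2.68 and 354 ± 8.16 CPM (SD, n = 3). The log2 fold change was -0.13 (SE 0.033, 95% interval -0.19 to -0.060, edgeR adjusted p = 0.0373), or -8.39%. This call was lost when some libraries were left out. The edgeR adjusted p was 0.104 without control replicate 1 and 0.108 without control replicate 2. It was 0.212 without IL17D replicate 1 and 0.236 without IL17D replicate 3. The direction was lower in all 12 alternatives, but leaving out 1 library could not reverse groups that do not overlap.

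ABCC2 and ABCC4 did not pass the adjusted test. ABCC2 (ENSG00000023839, chr10:99782640-99852594) encodes MRP2, the apical counterpart of MRP3. It had 614, 626 and 649.8 CPM in control and 593, 611 and 599 CPM in IL17D-overexpressing libraries, so the groups were separated by a narrow gap. Its log2 fold change was -0.067 (95% interval -0.13 to -0.0045, edgeR unadjusted p = 0.0364, adjusted p = 0.384). ABCC4 (ENSG00000125257, chr13:95019829-95301475) encodes MRP4, which exports cyclic nucleotides and prostaglandins. It had 165, 171 and 169.7 CPM in control and 154, 161 and 161 CPM in IL17D-overexpressing libraries, with a log2 fold change of -0.086 (95% interval -0.17 to -0.0046, edgeR unadjusted p = 0.0390, adjusted p = 0.394). The highest IL17D-overexpressing value lay just under the lowest control value in both genes. Without IL17D replicate 1 the adjusted p was 0.656 for ABCC2 and 0.707 for ABCC4.

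The remaining C genes had intervals that included 0. ABCC10 (MRP7, an exporter of taxanes) and ABCC5 (MRP5, an exporter of cyclic nucleotides) had the highest fitted values of the subfamily, with log2 fold changes of 0.16 (95% interval -0.034 to 0.34) and 0.11 (95% interval -0.028 to 0.25). ABCC8, the sulfonylurea receptor of the ATP-sensitive potassium channel, and ABCC6, whose loss causes ectopic calcification, had means under 3 CPM and intervals of -0.56 to 0.52 and -0.69 to 0.60. The summed level of subfamily C was 218 ± 1.94 CPM per kilobase in control and 200.2 ± 2.10 in IL17D-overexpressing libraries (SD, n = 3), with ranges of 217 to 220.4 and 198 to 202. Its share of the summed level of all members was 54.5 ± 0.247% in control and 52.5 ± 0.0717% in IL17D-overexpressing libraries. In these bulk libraries, fewer cells that express a gene and less RNA per cell cannot be told apart. The sum of all members went from 401 ± 2.01 to 381 ± 3.50 CPM per kilobase, and the difference of the C sum was nearly as large.

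**Figure D3:**
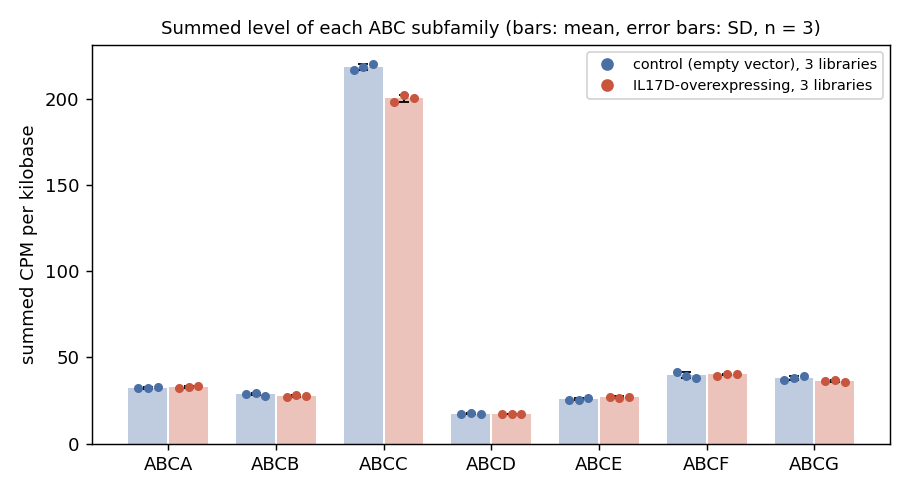
Summed level of each ABC subfamily in CPM per kilobase of gene length (bars from 0, mean of 3 libraries; error bars, SD; points, libraries) in control (blue) and IL17D-overexpressing (red) cells. Subfamily C is the tallest and its groups are apart, at 218 and 200.2. The G groups are apart as well, at 38.2 and 36.4, and those of A, B, D, E and F overlap. The sums of all subfamilies but C differ by less than 2 CPM per kilobase.

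In subfamily G, ABCG1 fell and the abundant ABCG2 did not pass the test. ABCG1 (ENSG00000160179, chr21:42199689-42297244) exports cholesterol to high-density lipoprotein and is a known target of the liver X receptors (LXRs). Its values were 13.2, 11.9 and 13.6 CPM in control and 8.94, 9.67 and 9.88 CPM in IL17D-overexpressing libraries. The groups did not overlap, with means of 12.9 ± 0.882 and 9.50 ± 0.496 CPM (SD, n = 3). The log2 fold change was -0.44 (SE 0.12, 95% interval -0.68 to -0.20, edgeR adjusted p = 0.0431), or -26.5%, the lowest of the tested members. The adjusted p was 0.104 with DESeq2 and 0.0545 with limma voom. Leaving out 1 library in edgeR gave 0.147 without control replicate 1 and 0.130 without control replicate 3. It gave 0.204 without IL17D replicate 1, 0.0978 without IL17D replicate 2 and 0.100 without IL17D replicate 3. The direction was lower in all 12 alternatives, but leaving out 1 library could not reverse groups that do not overlap.

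ABCG2 had 175, 181 and 186 CPM in control and 177, 177 and 170.4 CPM in IL17D-overexpressing libraries, which overlapped, and its interval was -0.13 to 0.030. ABCG4, a sterol transporter gene mainly of the nervous system, was at 1.36 ± 0.279 and 1.02 ± 0.528 CPM (SD, n = 3) with an interval of -1.22 to 0.37, so no difference was detectable at this depth.

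In subfamily A, ABCA1 was the only gene whose groups did not overlap. ABCA1 (ENSG00000165029, chr9:104781002-104928237) passes cholesterol and phospholipid to apolipoprotein A-I and, like ABCG1, is a known LXR target. It had 8.0, 7.74 and 7.90 CPM in control and 5.59, 6.87 and 5.89 CPM in IL17D-overexpressing libraries. The control values were close together and the IL17D-overexpressing values spread more widely below them. The log2 fold change was -0.36 (SE 0.15, 95% interval -0.66 to -0.064, edgeR unadjusted p = 0.0190, adjusted p = 0.301), and the adjusted p ranged from 0.257 to 0.571 over the 12 alternatives. ABCA2, a lysosomal lipid carrier and the most abundant A gene, had 166, 158 and 164 CPM in control and 163, 169 and 170.2 CPM in IL17D-overexpressing libraries, with a log2 fold change of 0.040 (95% interval -0.042 to 0.12). ABCA3, the surfactant lipid carrier, was at 83.0 ± 4.37 and 85.1 ± 1.17 CPM (SD, n = 3), with a log2 fold change of 0.034 (95% interval -0.068 to 0.14). The other tested A genes, ABCA7, ABCA5 and ABCA12 (a lipid carrier of keratinocytes), had log2 fold changes of -0.043, 0.14 and -0.17 with intervals across 0.

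No gene of subfamily B passed either threshold. ABCB8, a mitochondrial carrier singled out here after its values were seen because its groups did not overlap, had 75.6, 75.1 and 73.9 CPM in control and 71.4, 71.5 and 68.9 CPM in IL17D-overexpressing libraries (edgeR unadjusted p = 0.106). ABCB10, which acts in heme synthesis, had 52.6, 53.4 and 50.4 CPM in control and 52.1, 55.0 and 48.3 CPM in IL17D-overexpressing libraries. ABCB10 thus overlapped fully, with a log2 fold change of -0.0062 (95% interval -0.13 to 0.12). ABCB1, the multidrug efflux pump P-glycoprotein, had only 15 to 28 counts per library. It stood at 1.29 ± 0.238 CPM in control and 1.38 ± 0.326 CPM in IL17D-overexpressing libraries (SD, n = 3). Its interval of -0.59 to 0.82 leaves a difference of that size undetectable here. ABCB6 and ABCB9 had log2 fold changes of 0.094 and -0.035 with intervals across 0.

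**Figure D4:**
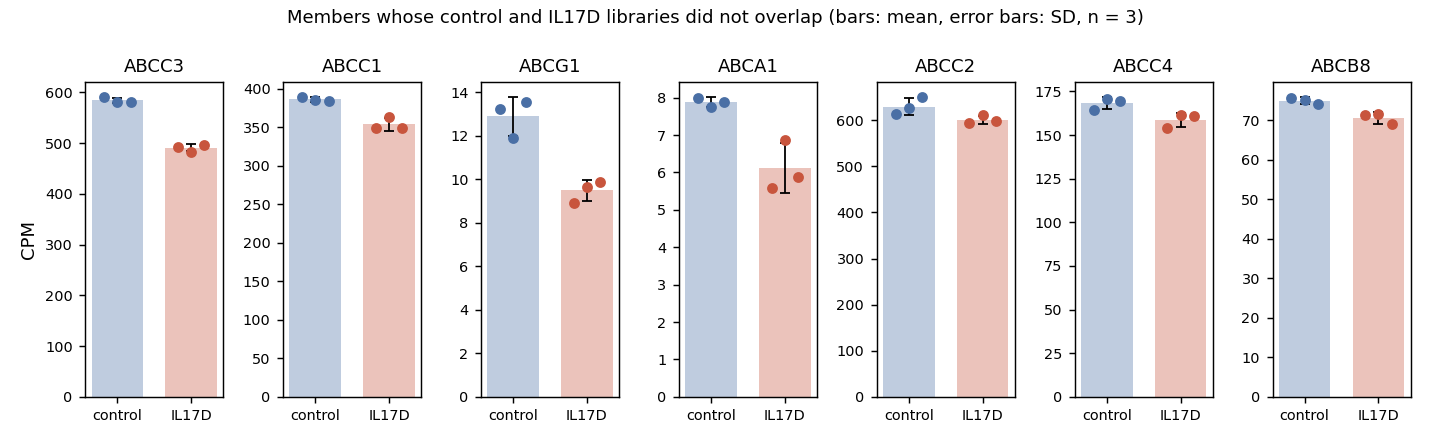
CPM of the 7 ABC transporter genes whose 3 control (blue) and 3 IL17D-overexpressing (red) libraries did not overlap, with 1 point per library, bars from 0 for the mean and error bars for the SD (n = 3). ABCC3 shows the widest gap relative to its spread, from 584 to 491 CPM, whereas the gaps of ABCC2, ABCC4 and ABCB8 are narrow.

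Subfamilies D, E and F held no gene past either threshold. ABCD4, which moves vitamin B12 out of lysosomes, had 33.4, 33.3 and 29.3 CPM in control and 29.8, 27.3 and 29.7 CPM in IL17D-overexpressing libraries. The groups overlapped through control replicate 3, and the log2 fold change was -0.15 (95% interval -0.30 to 0.012, edgeR unadjusted p = 0.0695). ABCD3, a peroxisomal carrier of branched-chain fatty acids and bile acid precursors, had 77.0, 77.0 and 79.8 CPM in control and 75.7, 86.1 and 81.5 CPM in IL17D-overexpressing libraries.

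ABCE1, which splits ribosomes after termination, had 159.5, 158 and 167 CPM in control and 171, 166 and 170.1 CPM in IL17D-overexpressing libraries. The groups overlapped at 166 to 167 CPM, and the log2 fold change was 0.065 (95% interval -0.016 to 0.15, edgeR unadjusted p = 0.113). Exons of OTUD4 and ANAPC10 on the opposite strand cover 4.41% and 7.49% of the length of ABCE1, and whether counting used strand is not given in the sources used here. ABCF3 had the smallest p of its subfamily, with 46.9, 46.9 and 42.8 CPM in control and 42.7, 45.1 and 41.0 CPM in IL17D-overexpressing libraries (log2 fold change -0.084, edgeR unadjusted p = 0.203). ABCF1, an initiation factor partner and the most abundant F gene, had 105, 98.5 and 96.6 CPM in control and 99.1, 105 and 106 CPM in IL17D-overexpressing libraries. ABCF2 had a log2 fold change of 0.030 (95% interval -0.11 to 0.17).

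The other 15 members did not pass the low-count filter. They were ABCA4, ABCA6, ABCA8, ABCA9, ABCA10, ABCA13, ABCB4, ABCB5, ABCB11, ABCC9, ABCC11, ABCC12, ABCD2, ABCG5 and ABCG8. Among them are the bile salt export pump gene ABCB11, the phospholipid floppase gene ABCB4 and the sterol half-transporter pair ABCG5 and ABCG8, all known from liver, and the retinal carrier gene ABCA4. In 9 of the 15, no library had more than 3 counts, and the highest count in any library was 11, for ABCC11 in control replicate 1. The highest total over the 6 libraries was 36, for ABCC9. No difference could be measured for these genes at this depth.

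A further 3 ABC proteins carry other symbols and are not members. The chloride channel gene CFTR had 0 to 3 counts per library and was not tested. TAP1 and TAP2 form the transporter that feeds peptides to MHC class I. TAP2 had 16.98, 15.5 and 14.3 CPM in control and 17.7, 19.0 and 18.1 CPM in IL17D-overexpressing libraries, without overlap (log2 fold change 0.23, edgeR unadjusted p = 0.0290, adjusted p = 0.358). TAP1 had a log2 fold change of 0.076 (95% interval -0.053 to 0.21).

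Genes that work with these transporters, CFTR, TAP1 and TAP2 included, were taken from 12 lists of 100 genes in all, of which 86 were tested. In total 1 of these 86 fell and 1 rose at an adjusted p under 0.05, against 0.908% and 0.673% of all tested genes. At an unadjusted p under 0.05, 15 were lower and 7 higher, against 5.99% and 5.59% of all tested genes. The gene that fell was SREBF1, the LXR-responsive regulator of lipid synthesis, with 314, 313 and 296 CPM in control and 263, 259 and 261 CPM in IL17D-overexpressing libraries (log2 fold change -0.24, SE 0.035, edgeR adjusted p = 4.98e-05). The groups were separated by more than 30 CPM. SREBF1 belongs to the list of LXR and sterol efflux partners of ABCA1 and ABCG1, in which 9 of 11 genes had lower values (median -0.099). Apart from SREBF1, the lower genes of this list all had intervals across 0. The only other gene of the list at an unadjusted p under 0.05 was NPC1. It was higher, and its groups did not overlap (log2 fold change 0.14, edgeR unadjusted p = 0.0110, adjusted p = 0.236). NPC2 was lower, also without overlap (log2 fold change -0.12, edgeR unadjusted p = 0.201). The LXR genes NR1H2 and NR1H3 themselves had log2 fold changes of -0.041 and 0.020, with intervals across 0. The gene that rose was SLC25A37, the mitochondrial iron importer, with 137, 136 and 149 CPM in control and 159, 163 and 159 CPM in IL17D-overexpressing libraries (log2 fold change 0.19, SE 0.042, edgeR adjusted p = 0.00842). Its list, the mitochondrial heme and iron-sulfur partners of the B subfamily, had 5 genes lower and 5 higher (median 0.010).

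Partners of the MRPs had no gene past the adjusted threshold. In the KEAP1-NRF2 and glutathione list 9 of 13 tested genes had lower and 4 had higher values (median -0.054). At an unadjusted p under 0.05 there were 4 genes, all lower. GCLM, a subunit of the enzyme that limits glutathione synthesis, had the smallest p there (log2 fold change -0.13, edgeR adjusted p = 0.121). TXNRD1 and NQO1, the most abundant genes of this list by CPM, had log2 fold changes of 0.0057 and 0.013 with intervals across 0. The NRF2 gene NFE2L2 and KEAP1 had 0.081 and -0.00092, also with intervals across 0. Whether NRF2 activity differed was not tested. Of 7 tested xenobiotic sensing receptors 3 had lower values, each at an unadjusted p under 0.05 (median 0.070). The nuclear receptor gene HNF4A had the smallest p (log2 fold change -0.30, edgeR adjusted p = 0.0950), and NR1I2, which encodes the pregnane X receptor, had too few counts to test. Among 11 tested uptake carriers 7 had lower values (median -0.068), with SLC22A18 first by p (log2 fold change -0.25, edgeR adjusted p = 0.0930). The potassium channel subunit gene KCNJ11, a partner of ABCC8, had a log2 fold change of 0.10 with an interval of -0.41 to 0.61.

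Among the partners of the other members, the direction differed between lists. All 7 tested peptide loading genes had lower values (median -0.10), opposite in sign to TAP1 and TAP2, with B2M first by p (log2 fold change -0.12, edgeR adjusted p = 0.148). Of 7 peroxisomal partners 6 had lower values (median -0.12), and HSD17B4, an enzyme of peroxisomal beta-oxidation, had the smallest p (log2 fold change -0.16, edgeR adjusted p = 0.116). Of 5 vitamin B12 partners of ABCD4 2 had lower values (median 0.094), with the transport protein gene TCN2 first by p (log2 fold change -0.33, edgeR adjusted p = 0.164). Of 10 translation and ribosome recycling partners of ABCE1 and the F subfamily 3 had lower values (median 0.029), and the smallest p was that of the termination factor gene ETF1 (log2 fold change 0.058, edgeR adjusted p = 0.596). Of 9 surfactant partners of ABCA3, 7 were too low to test, SFTPB and NKX2-1 among them. The phospholipid-remodelling enzyme gene LPCAT1 had the smallest p of the other 2 (log2 fold change 0.13, edgeR adjusted p = 0.264).

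**Figure D5:**
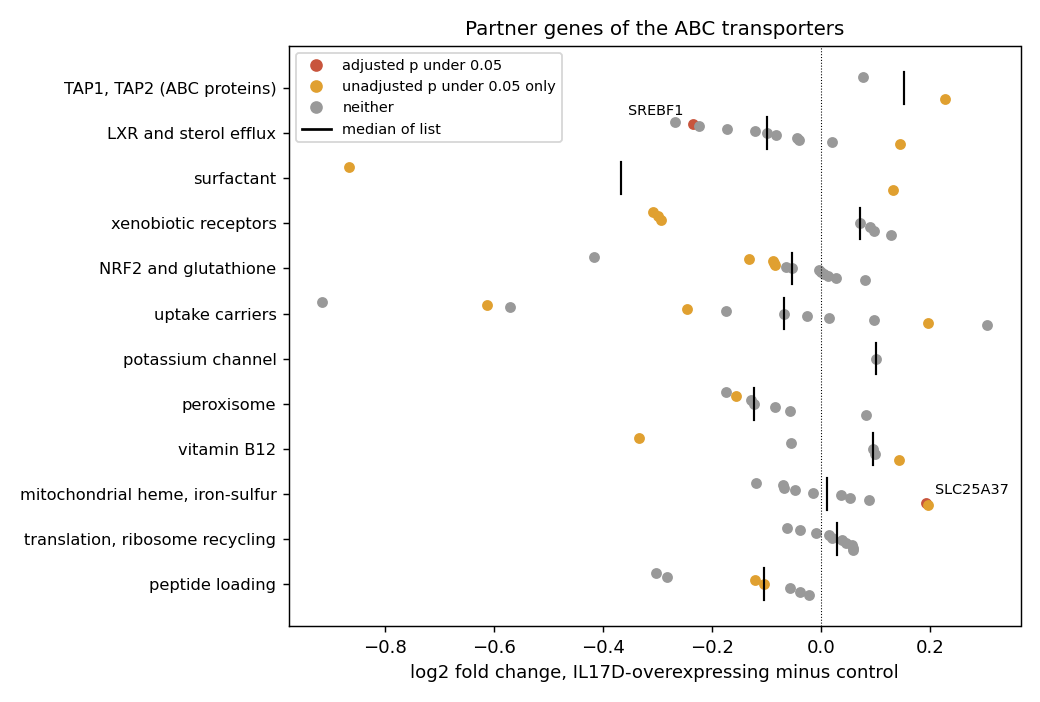
Log2 fold change (IL17D-overexpressing minus control) of the 86 tested partner genes (TAP1 and TAP2 included), with 1 point per gene, 1 row per list and a vertical tick at each list's median. SREBF1 at -0.24 and SLC25A37 at 0.19 (red) passed the adjusted test, and the medians lie between -0.12 and 0.15 apart from the surfactant list, which had 2 tested genes.

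Close copies, or genes that overlap at the same place, could share reads with some members. The share of 31-base stretches of a member's GENCODE 29 transcripts that also occur in another gene had a median of 2.91% over the 30 tested members. It was 3.01% for ABCC3, 1.23% for ABCC1 and 2.91% for ABCG1. It was over 5% for 10 tested members, the highest being ABCB6 with 52.5%, ABCF2 with 48.3%, ABCB9 with 27.3%, ABCE1 with 24.1% and ABCC6 with 23.1%. Most of the shared stretches of ABCC6 lie in its pseudogene ABCC6P1. Those of ABCB6 and ABCF2 lie mostly in AC068946.2 and AC021097.2, which overlap them on the same strand. Those of ABCB9 lie mostly in AC026362.1, which overlaps it on the opposite strand. These overlapping genes had totals of 53, 0 and 0 counts. For ABCE1 the largest share with another gene was 6.32%, with ANAPC10. Values of these 5 genes are uncertain to that extent. How reads with several matches, or on overlapping genes, were counted is not given in the sources used here.

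Promoters, taken from RefSeq (GRCh38.p14) as 250 bases before to 50 bases after a start, were given for 35 members, 24 of them tested, in 53 windows. ABCC3, ABCC1 and ABCG1 had no entry. On both strands, the NRF2-type element TGACNNNGC was found in 22.6% of the members' windows and in 13.3% of all 35116 windows. The AP-1-type element TGANTCA was found in 11.3% and 7.71%, and the E-box CACGTG in 16.98% and 7.26%. The window of ABCC2 held none of these elements. TGACNNNGC was in windows of 11 tested members, of which only ABCC4 was at an unadjusted p under 0.05. TGANTCA and TGACNNNGC can overlap, and a match is a description of letters, not a bound site. The window of ABCA1, the sterol exporter gene with the lowest unadjusted p of subfamily A, is shown from 5′ to 3′ on the gene's strand with its E-box in capitals.
ABCA1 promoter, chr9:104928106-104928405 (-): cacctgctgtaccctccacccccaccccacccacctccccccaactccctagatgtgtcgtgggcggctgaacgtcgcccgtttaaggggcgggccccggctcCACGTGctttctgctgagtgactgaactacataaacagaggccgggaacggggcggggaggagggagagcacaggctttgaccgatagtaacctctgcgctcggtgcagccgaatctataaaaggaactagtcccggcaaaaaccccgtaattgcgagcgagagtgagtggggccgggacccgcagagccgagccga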

How the data were processed

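RNA-seq of A549 cells (3 IL17D-overexpressing and 3 empty vector libraries) was analysed from 1 table of counts per gene, deposited by the authors without normalization. The labels name Bowtie2 and hg38, and gene coordinates and lengths equal those of GENCODE 29. How reads were counted is not given in the sources used here. Every per-sample column was used. Groups came from the sample labels.

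Genes were filtered with edgeR's filterByExpr (15754 of 58735 kept, with 10 as its minimum count), scaled by TMM and compared by the quasi-likelihood test in edgeR 4.0.16 (R 4.3.3), with Benjamini-Hochberg adjustment over all tested genes and no covariates. Tests were two-sided. The standard error was the log2 fold change divided by the square root of F, and intervals are 95%. The steps were checked on simulated counts. No 2 libraries of a group agreed within sampling noise.

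The members, the partner lists and the tests were chosen with earlier results of these data known. Members were named with values in every library if they passed an adjusted or unadjusted p of 0.05, or had the smallest p or the highest level per kilobase of their subfamily. From each partner list the called genes were named, or else the gene with the smallest p. Further genes of the LXR and KEAP1-NRF2 lists were also named. The lists held ABC genes under other symbols, LXR and sterol efflux, surfactant, xenobiotic receptors, KEAP1-NRF2 and glutathione, uptake carriers, potassium channel, peroxisome, vitamin B12, mitochondrial heme and iron-sulfur, translation and peptide loading genes, and markers of epithelium and of other cell types.

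Alternatives were DESeq2 1.42.0, limma voom 3.58.1, RLE factors, 2 other filters, a block for the replicate number, and dropping 1 library at a time. Coding sequences were searched in place of protein sequences. The single values of 2 tested members are not reported here, though counts and medians over all members include them.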

Additional observations from a re-analysis of the deposited data

How the results depend on the processing

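All 7 members whose groups did not overlap kept their lower direction under all 12 alternatives. Leaving out 1 library cannot reverse groups that do not overlap, so those alternatives are no check of the direction. ABCC3 was called in 12 of 12, ABCC1 in 7 and ABCG1 in 5. Leaving out 1 library gave 1 to 2 members called at the adjusted threshold (3 with all libraries), 3 to 7 members at an unadjusted p under 0.05 (6 with all), 9 to 12 without overlap between groups (7 with all, a count that fewer libraries make easier to reach) and medians of -0.052 to -0.029. Outside of these, the adjusted count was 2 or 3, the unadjusted count 4 to 6 and the median -0.059 to -0.042. With all genes of at least 1 count kept, all 45 members were tested, 3 passed the adjusted threshold, and 10 did not overlap, 2 of them higher. The added ones were ABCA6, ABCA10 and ABCB4, with at most 1, 8 and 6 counts per library, too few to measure a difference. The share of all genes without overlap is not given for this filter. With the replicate number as a block, 2 members were called, 4 had an unadjusted p under 0.05, the median was -0.054 and the adjusted p of ABCC1 was 0.0507. Libraries of the same number did not deviate together (r = 0.00997, -0.0119 and -0.0151), so no pairing by number was seen in the counts. With 3 libraries per group, such correlations cannot show that these libraries were prepared apart. How the replicates were made is not given in the sources used here. RLE factors shifted the median of all genes by 0.0015. Depth limits the members with few counts most. The 95% interval reached 0.80 to each side of the fitted value for ABCG4 (1.36 CPM on average in control), against 0.062 at the narrowest.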
